A study of Mus musculus with 9 samples.

Results

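The livers of these mice were measured for 3 related miRNAs: mmu-miR-192-5p, mmu-miR-194-5p and mmu-miR-215-5p, written here without the species prefix. They were taken by their names in the scanner files and are 3 of the 1881 mouse miRNAs measured. Of the 3, miR-192-5p and miR-194-5p were detected on all 9 arrays and are among the 143 miRNAs tested, while miR-215-5p was at background on every array. Each sample was a pool of liver from 4 male C57BL/6J mice, an inbred strain, aged 20 weeks, and each group had 3 pools on 1 array each. The metformin mice were fed chow with 45% of calories as fat for 17 weeks from 3 weeks of age and received 3 mg/kg of metformin, a glucose-lowering drug, daily by stomach tube over the last 5 weeks. The high fat diet mice ate the same diet for the same time and received saline by the same route over the same 5 weeks. The control mice were kept on normal chow for those 17 weeks, and the labels mention no gavage for them. Because each array holds a pool, the SDs over arrays below are spreads between pools and not between mice. The SEs and intervals rest on pools too. They come from a model that shares 1 spread over the groups and draws it toward that of the other miRNAs. Coefficients of variation over spots are spreads within 1 array.

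miR-192 and miR-194 are made together: in the mouse genome a miR-194 hairpin lies beside miR-192 at one locus, and a second miR-194 hairpin lies beside miR-215, a close relative of miR-192, at another. In liver the pair is a known hepatocyte product, driven by hepatocyte nuclear factors, which also act in gut and kidney epithelium. The family is also known to respond to p53, the DNA damage transcription factor, and miR-192 in blood serves as a marker of liver injury. The seed, the stretch of bases that pairs with target messages, is shared by miR-192 and miR-215, which are known to silence the Zeb repressors of the epithelial state. miR-194 has another seed and is known to target N-cadherin.

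The mature sequences below, from RefSeq on GRCm38.p6, show why the members divide into a pair with 1 seed and another miRNA with its own. All 7 strands of the hairpins matched an entry. Capitals mark the seed, bases 2 to 8 from the 5′ end.
miR-192-5p: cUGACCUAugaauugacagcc
miR-215-5p: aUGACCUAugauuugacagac
miR-194-5p: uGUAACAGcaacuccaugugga
miR-192-5p and miR-215-5p are both 21 bases long and share 18 of them. Counted from the 5′ end, with the miR-192-5p base first, they differ by C1A, A12U and C20A, so the seed is unbroken. No other miRNA on the array with a RefSeq sequence has either seed, out of 1608 of the 1881 that matched.

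The hairpin of miR-192 lies at chr19:6264844-6264932, and Mir194-2 lies 115 bases before it at chr19:6264643-6264728, both on the plus strand. Mir194-1 lies at chr1:185313319-185313385 and Mir215 follows it 195 bases on, at chr1:185313581-185313692, again on the plus strand. Both miR-194 hairpins give the same mature miR-194-5p, so the level of miR-194-5p cannot be assigned to a locus. Their opposite strands do differ, and each has its own probes on the array, so these are the sequences that could separate the loci.
miR-194-2-3p: cCAGUGGGgcugcuguuaucug
miR-194-1-3p: cCAGUGGAgcugcuguuacuuc
Written from miR-194-1-3p to miR-194-2-3p, the differences are A8G, C19U, U20C and C22G.

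miR-192-5p, which comes only from the chromosome 19 locus, was detected on all 9 arrays, while miR-215-5p and the 4 other strands were detected on none. Each miRNA had 2 probes of 15 spots each, and a probe counted as detected on an array when more than a share of 0.5 of its usable spots lay well above background. Of the 211 usable miR-215-5p spots, 1 lay well above background, on a control array. The median of all miR-215-5p probe values was an intensity of 0.224, with a range from -1.87 to 2.10. The dimmest detected probe of any miRNA had an intensity between 9.35 and 15.1, depending on the array. miR-215-5p therefore has only an upper bound here and was given no fold change. miR-194-2-3p, the strand from the miR-192 locus, had 3 spots of 186 well above background, all on metformin arrays, and its 2 probes ranged from -2.13 to 6.51. miR-194-1-3p, the strand from the miR-215 locus, had 0 of 184, and its probes ranged from -1.18 to 1.71. miR-192-3p had 2 of 205, both on metformin arrays, and was called detected by the scanner software on 1 array. miR-215-3p had 0 of 199. Spots of 1 probe on 1 array share a sample and are not replicates, so these counts describe the arrays and compare no groups.

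**Figure D1:**
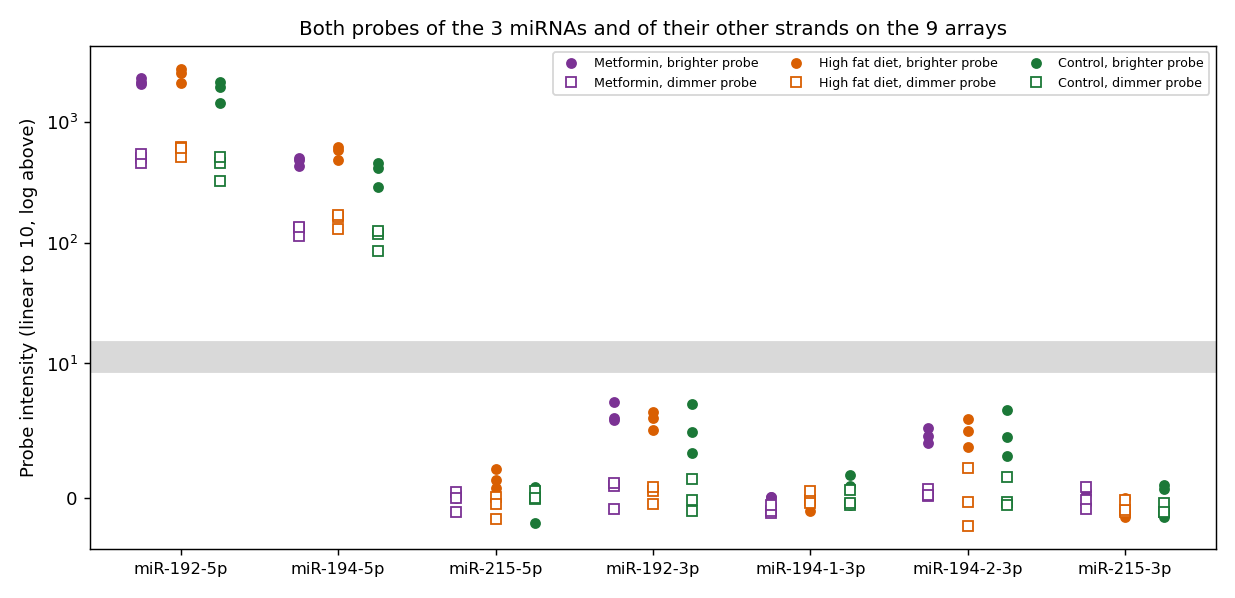
Probe intensity of the 3 miRNAs and of the 4 other strands of their hairpins on the 9 arrays, on an axis that is linear up to 10 and logarithmic above, with 1 point per array and probe and the edge strips left out. The grey band spans the dimmest detected probe of each array (9.35 to 15.1); all points of miR-192-5p and miR-194-5p lie above it and all points of miR-215-5p and the other strands lie below it.

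The arrays carried a fault that reached the members' own spots. On 6 of the 9 arrays, columns at the left or right edge held spots that had lost signal. The strips left out for this took in 0%, 31.1% and 0% of the spots in the metformin group. These percentages are the area left out, and not every spot in it lacked signal. They took in 53.6%, 0% and 33.6% in the high fat diet group and 43.8%, 43.5% and 41.1% in the control group, so they were unequal between groups. Within the strips, the members' spots had a median of 0.37% to 68.8% of the same probe's median outside them. On control array 1, for example, the brighter miR-192-5p probe had 3 spots in the strip with a median of 27.8, against 1406 for its 12 spots outside. The levels given here leave the strips out and take the median of each probe's remaining spots, and the values with all spots stand beside them. Outside the strips the spots of a member agreed closely, with a median coefficient of variation over spots of 6.01% for the brighter miR-192-5p probe and 4.20% for the brighter miR-194-5p probe, and a maximum of 17.4% over the members' probes and arrays. With all spots these medians were 6.12% and 4.75%, and the maximum was 109%.

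**Figure D2:**
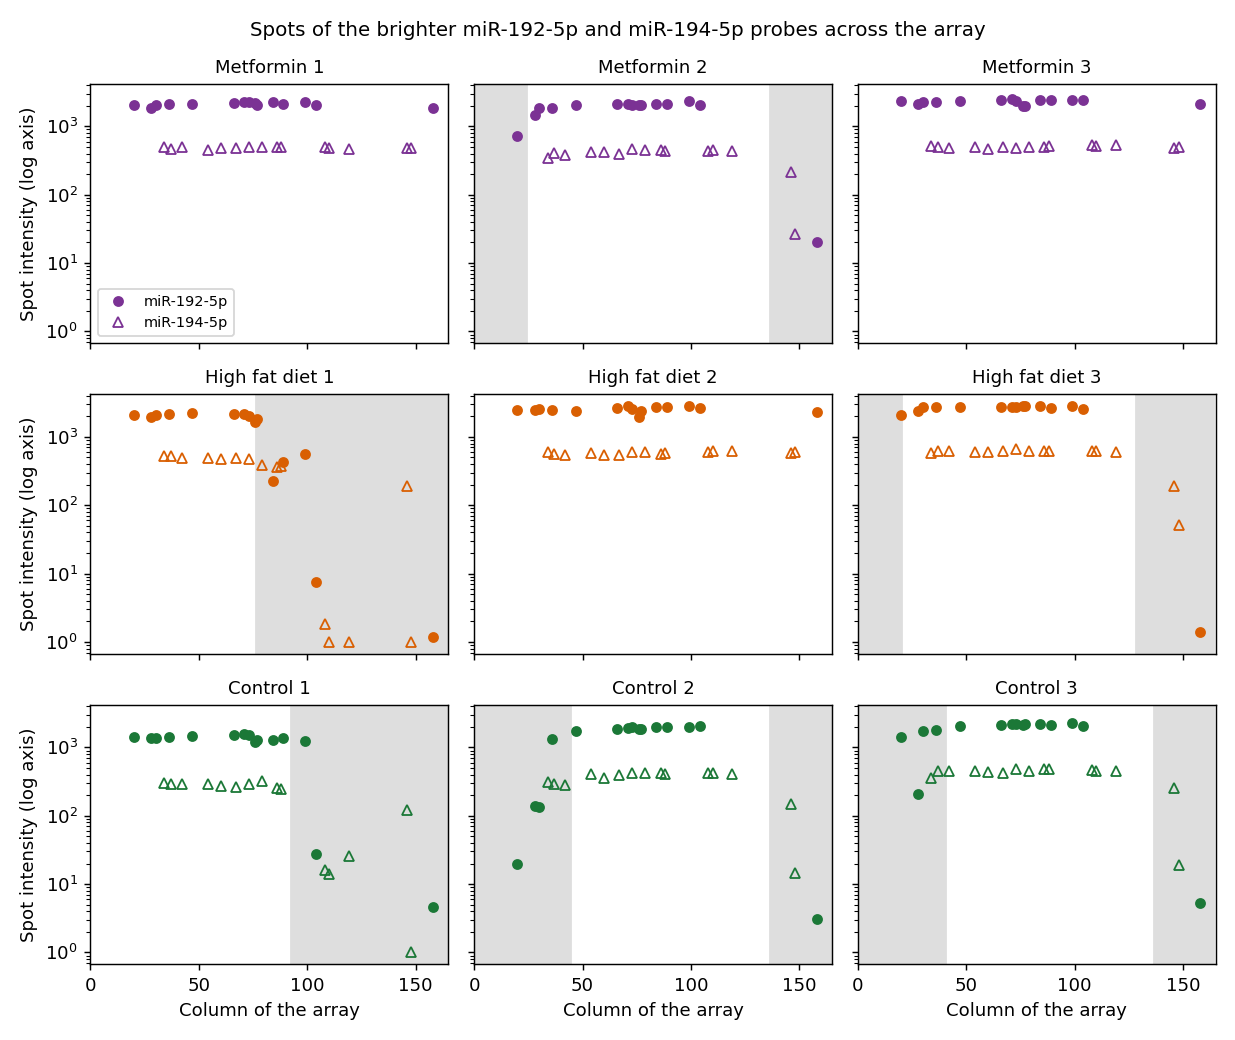
Intensity of each spot (log axis) of the brighter miR-192-5p probe (filled circles) and the brighter miR-194-5p probe (open triangles) against the column of the array, 1 panel per array, with spots under 1 drawn at 1. Grey columns were left out; inside them spots fall to as little as the bottom of the axis, while outside them each probe runs level across the array.

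1 array also stood apart in its content. High fat diet array 3 carried muscle miRNAs, with an intensity of 299.957 for the brighter miR-133a-3p probe and 239 for the brighter miR-1a-3p probe, where no other array exceeded 16.5 and 17.5. miR-206-3p was detected on that array only. At those lower intensities, miR-1a-3p was also detected on control array 3, and miR-133a-3p on control array 3 and metformin array 1. The summed level of the 3 muscle miRNAs ranged from 0 to 0.0535 times the scaling percentile in the metformin group, 0 to 1.77 in the high fat diet group and 0 to 0.151 in the control group. Its part in the members' values was not tested beyond leaving that array out, and those values are given with each comparison for the levels without the strips. Among the 4 red blood cell miRNAs on the array, only miR-451a was tested. It differed by -1.01 for metformin minus high fat diet and -0.90 for metformin minus control and passed in neither (adjusted p = 0.158 and 0.150). With all spots these were -0.82 and -0.93 (adjusted p = 0.383 and 0.203). The part of miR-451a in the members' values was not tested. Of the 6 stellate and mesenchymal miRNAs, 3 were tested and 1 passed between high fat diet and control, miR-199a-3p, a miRNA of stellate cells, by 0.31 (adjusted p = 0.0301). That call was absent with all spots (0.57, adjusted p = 0.158) and kept in 12 of 21 other settings; without any 1 of the high fat diet arrays the adjusted p lay between 0.0677 and 0.0866. The liver label was borne out by its 3 hepatocyte markers: miR-122-5p and miR-148a-3p were detected on all 9 arrays and miR-122-3p on 8. Of 8 miRNAs of bile duct and gut epithelium, miR-31-5p was detected on 9 arrays, miR-200b-3p on 2 and the other 6 on none. Their summed level was 0.0599 to 0.0767 in the metformin group, 0.0794 to 0.157 in the high fat diet group and 0.0641 to 0.137 in the control group. In pooled tissue, fewer cells of a type and less of a miRNA per cell cannot be told apart.

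miR-192-5p, the seed sister of miR-215, had group means within 0.08 of each other on the log2 scale. Its brighter probe had intensities of 2138, 2063 and 2324 on the metformin arrays. High fat diet livers gave 2126, 2528 and 2765, and control livers gave 1436, 1938 and 2168. Control array 1 was the lowest of the 9, and high fat diet array 3 the highest, before any scaling.

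Each array was then divided by the 75th percentile of the 187 probes that were detected everywhere, which was also lowest on control array 1 (193) and highest on high fat diet array 3 (323). The scaled log2 level of miR-192-5p was 3.09, 3.16 and 3.29 on the metformin arrays, a mean of 3.18 ± 0.11 (SD, n = 3). It was 3.26, 3.18 and 3.10 on the high fat diet arrays, a mean of 3.18 ± 0.08 (SD, n = 3). It was 2.90, 3.13 and 3.27 on the control arrays, a mean of 3.10 ± 0.19 (SD, n = 3). The 3 groups overlapped, and the spread among the control arrays was wider than any difference between group means. Only control array 1 lay below the other 8 arrays.

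Before scaling, the intensities of miR-194-5p ranked the arrays of each group as those of miR-192-5p did. The brighter probe read 489, 433 and 500 on the metformin arrays. In high fat diet livers it read 487, 588 and 619, and in control livers 287, 415 and 457. Here too control array 1 was the lowest and high fat diet array 3 the highest.

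On the scaled log2 scale, miR-194-5p stood at 0.96, 0.91 and 1.08 on the metformin arrays, a mean of 0.98 ± 0.09 (SD, n = 3). It stood at 1.14, 1.08 and 0.94 on the high fat diet arrays, a mean of 1.05 ± 0.10 (SD, n = 3). It stood at 0.58, 0.91 and 1.02 on the control arrays, a mean of 0.83 ± 0.23 (SD, n = 3). The groups again overlapped, and control array 1 was again the lowest of the 9.

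**Figure D3:**
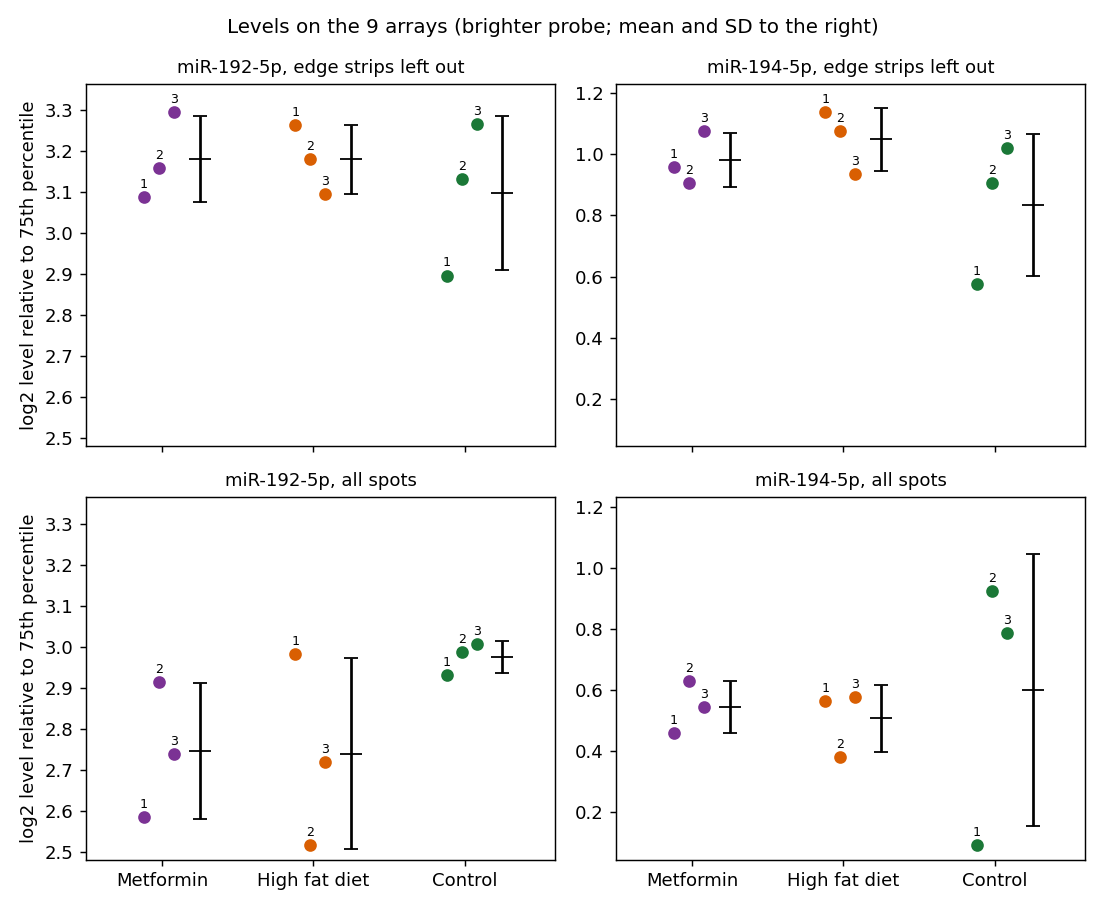
Scaled log2 level of the brighter miR-192-5p and miR-194-5p probes on each array (points, numbered by replicate) with the group mean and SD, with the edge strips left out (top) and with all spots (bottom). With the strips left out the metformin, high fat diet and control arrays overlap for both miRNAs; with all spots the 3 control arrays lie above the 3 metformin arrays for miR-192-5p.

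The comparison of high fat diet with control livers asks what the diet, with its gavage, did to the pair. Neither member passed the test, in a comparison where 14% of the 143 miRNAs did (20 miRNAs, 6 higher and 14 lower). miR-192-5p differed by 0.08 on the log2 scale, high fat diet minus control (SE 0.11, 95% interval -0.16 to 0.33, adjusted p = 0.631 by limma). miR-194-5p differed by 0.22, a 1.16-fold higher mean in high fat diet livers (SE 0.12, 95% interval -0.05 to 0.48, adjusted p = 0.216). The median over all tested miRNAs was 0.03. The arrays of the groups overlapped for both members, while they did not overlap for 37.1% of all miRNAs tested. The intervals still allow a rise of either miRNA of the size of their upper ends. Without high fat diet array 3 the differences were 0.12 for miR-192-5p and 0.27 for miR-194-5p (adjusted p = 0.498 and 0.215). Without control array 1 they were 0.08 and 0.18, and without control array 3, the only array of its slide, 0.17 and 0.31 (adjusted p = 0.283 and 0.0838). With the slide row as a block over 8 arrays they were 0.31 and 0.34 (adjusted p = 0.349 each). On that slide all 3 high fat diet arrays lay in row 1 and control arrays 1 and 2 in row 2. Diet and row can therefore not be told apart there directly, and the blocked values rest on the metformin arrays, which lay in both rows.

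The comparison of metformin with high fat diet livers asks what the drug added on the same diet. The means of miR-192-5p differed by 0.00011, metformin minus high fat diet (95% interval -0.25 to 0.25, adjusted p = 0.999). miR-194-5p differed by -0.07 (SE 0.12, 95% interval -0.34 to 0.20, adjusted p = 0.835). Neither passed the test, in a comparison where 1.4% of the miRNAs tested did and the median over all of them was -0.06. The arrays overlapped for both members, against 20.3% of all miRNAs whose arrays did not. Without high fat diet array 3 the differences were -0.04 and -0.12 (adjusted p = 0.918 and 0.711).

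Metformin-treated livers on the high fat diet were also set against the chow controls. miR-192-5p differed by 0.08, metformin minus control (SE 0.11, 95% interval -0.16 to 0.33, adjusted p = 0.690), and miR-194-5p by 0.15 (SE 0.12, 95% interval -0.12 to 0.42, adjusted p = 0.504). Neither passed the test, in a comparison where 1.4% of the miRNAs did, and the median over all of them was 0.00. The arrays of both members overlapped, against 25.9% of all miRNAs whose arrays did not. Without high fat diet array 3, which enters here only through the shared spread, the differences were the same (adjusted p = 0.709 and 0.492). This comparison shares its control arrays with the diet comparison and its metformin arrays with the drug comparison, so the 3 sets of values are not independent. At an unadjusted p under 0.05, 0 of the 2 members passed in each of the 3 comparisons, while 51, 13 and 30 of all miRNAs tested did in the diet comparison, the drug comparison and metformin against control.

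Several of the small differences had the opposite sign with all spots, a reading that also takes the mean of the spots and another set of scaling probes, so the part of the strips alone was not tested. With all spots, miR-192-5p differed by -0.24 between high fat diet and control (adjusted p = 0.412, 6.47% of 139 miRNAs passing), and miR-194-5p by -0.09 (adjusted p = 0.804), with arrays that overlapped where those of 23% of miRNAs did not. The median over all miRNAs in that comparison was -0.22 with all spots, so that relative to it miR-192-5p stood near the middle of the miRNAs. For metformin against high fat diet the differences were 0.01 and 0.04, where the median over all miRNAs was 0.16 and 0% passed (15 at an unadjusted p under 0.05). The members' arrays overlapped there, against 22.3% of miRNAs whose arrays did not. For metformin against control they were -0.23 and -0.06 (adjusted p = 0.585 and 0.973, 0% passing). The median over all miRNAs there was 0.02, and 15 miRNAs had an unadjusted p under 0.05. The miR-192-5p arrays of metformin and control did not overlap with all spots, at 2.58, 2.91 and 2.74 against 2.93, 2.99 and 3.01, which was so for 21.6% of all miRNAs. The dimmer miR-192-5p probe went the other way in that reading, by 0.16 with overlapping arrays. With the strips left out the brighter probe's arrays overlapped and the difference was positive.

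The second probe of each miRNA gave a further measurement of the same RNA on the same arrays. The dimmer miR-192-5p probe differed by 0.11 for high fat diet against control, -0.04 for metformin against high fat diet and 0.07 for metformin against control, in a fit of 226 probes with the strips left out. The dimmer miR-194-5p probe differed by 0.15, -0.09 and 0.06 in the same order of comparisons, and none of the 6 passed. The 2 probes of 1 miRNA thus gave the same sign in each comparison, apart from miR-192-5p between metformin and high fat diet, where both values lay near 0. The log2 gap between the 2 probes of miR-192-5p was 2.12 ± 0.05 in metformin, 2.08 ± 0.08 in high fat diet and 2.11 ± 0.04 in control arrays (SD, n = 3). For miR-194-5p it was 1.89 ± 0.03, 1.87 ± 0.04 and 1.81 ± 0.05 in the same groups. The spread of that gap shows how far 2 readings of 1 miRNA drift apart between arrays. For miR-194-5p the gap itself did not overlap between metformin (1.87 to 1.93) and control arrays (1.76 to 1.85). Among single miRNAs, the arrays of these groups did not overlap for 25.9%. In high fat diet arrays the gap ran from 1.83 to 1.90 and overlapped both. The share among other pairs of probes was not computed.

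**Figure D4:**
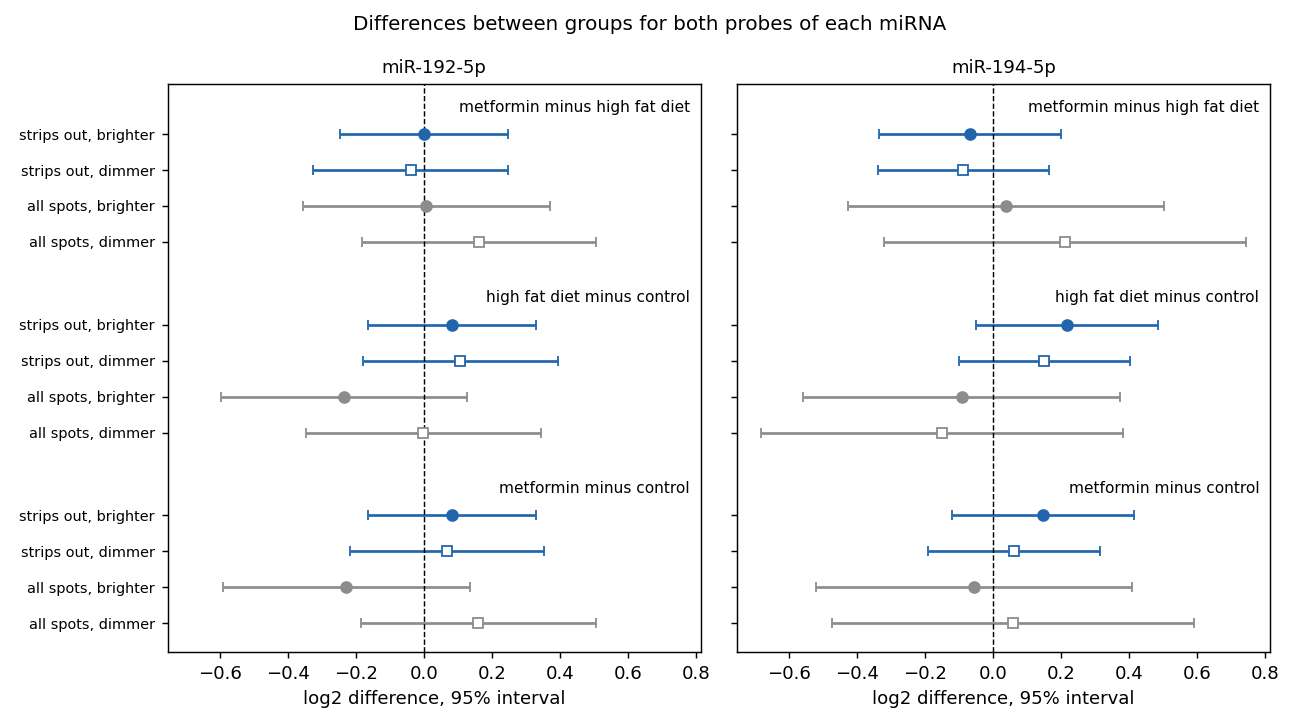
Difference in log2 level between groups with its 95% interval for both probes of miR-192-5p and miR-194-5p (circles, brighter; squares, dimmer), with the edge strips left out (blue) and with all spots (grey). Every interval crosses 0, and the blue ones are narrower than the grey ones of the same probe.

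Since the miR-192 locus gives both miRNAs, the log2 difference of miR-194-5p minus miR-192-5p was taken within each array, where the scaling of the array cancels. The value itself depends on the probes, so only its change between groups is read. From the brighter probes it was -2.13, -2.25 and -2.22 on the metformin arrays. It was -2.13, -2.10 and -2.16 in high fat diet livers, against -2.32, -2.22 and -2.25 in control livers. The high fat diet values did not overlap the control values, while metformin spanned both. Among single miRNAs, the arrays of high fat diet and control did not overlap for 37.1%, and those of metformin and control for 25.9%. The share among other pairs of miRNAs was not computed.

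The within-array value was 0.13 higher in high fat diet than in control arrays (two-sided exact permutation p = 0.1, the smallest that 3 against 3 arrays can give). It was 0.07 lower in metformin than in high fat diet arrays (a difference of -0.07, exact permutation p = 0.2) and 0.06 higher in metformin than in control arrays (exact permutation p = 0.3). The result depended on the probes. The brighter miR-194-5p probe against the dimmer miR-192-5p probe gave 0.11 for high fat diet against control, with arrays that did not overlap. The dimmer miR-194-5p probe gave 0.07 against the brighter miR-192-5p probe and 0.04 against the dimmer one, with arrays that overlapped (exact permutation p = 0.3 and 0.4). In that first alternative pairing, metformin arrays did not overlap control arrays either (0.08 higher, exact permutation p = 0.1). These pairings were chosen after the values had been seen and share arrays and probes, and adjusted over the 12 comparisons the smallest of these exact permutation p-values was 0.4. With all spots the brighter probes gave 0.14 for high fat diet against control with overlapping arrays (exact permutation p = 0.7), and the other 3 pairings gave -0.09 and -0.15 with the dimmer miR-192-5p probe and 0.08 with the dimmer miR-194-5p probe against the brighter miR-192-5p probe. Both miR-192-5p probes thus gave the separation with 1 miR-194-5p probe and neither gave it with the other. The gap between the 2 miR-194-5p probes itself spanned 0.17 over the 9 arrays.

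**Figure D5:**
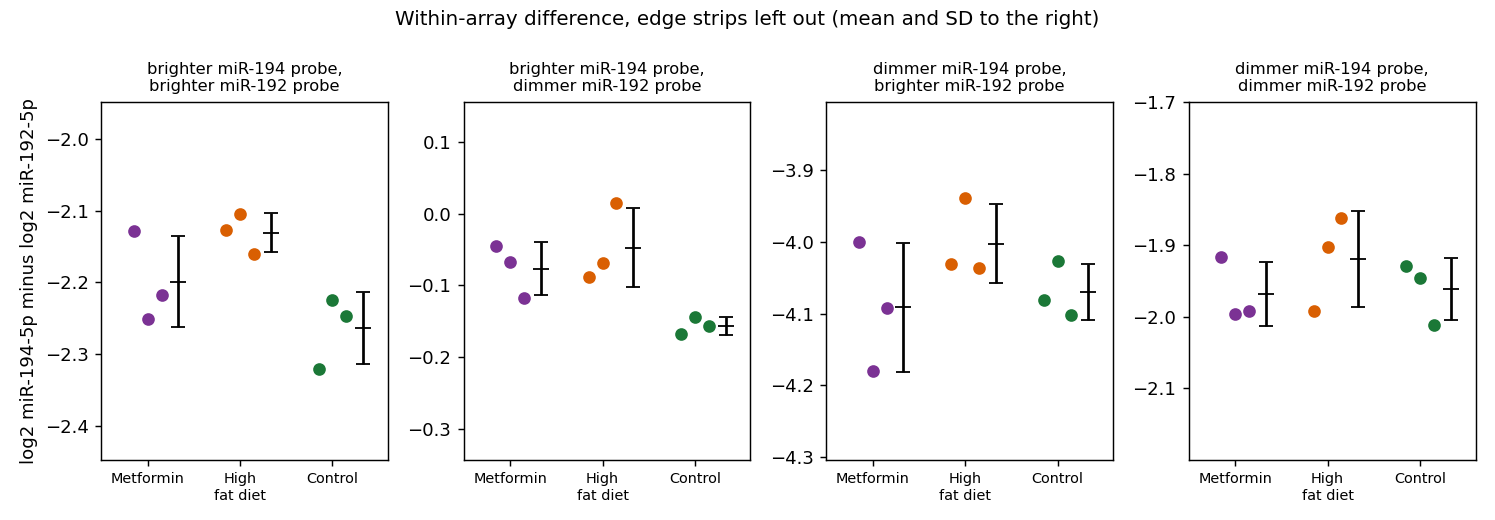
Log2 level of miR-194-5p minus log2 level of miR-192-5p within each array for the 4 pairings of probes, with the group mean and SD and the edge strips left out; each panel spans the same height of 0.5 on the log2 axis. High fat diet arrays lie above control arrays in the 2 panels with the brighter miR-194-5p probe and overlap them in the 2 panels with the dimmer one.

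Across the 9 arrays miR-192-5p was among the steadier miRNAs and miR-194-5p near the middle. The SD of the scaled log2 level over all 9 arrays was 0.122 for miR-192-5p, the 35th smallest of the 118 miRNAs detected on all arrays, and 0.164 for miR-194-5p, the 59th smallest, with a median of 0.167. After centring each miRNA on its own mean, miR-192-5p and miR-194-5p differed by a root mean square of 0.0680 over the 9 arrays. miR-194-5p was the 4th nearest of the miRNAs to miR-192-5p, and miR-192-5p the 4th nearest to miR-194-5p. Nearer to miR-192-5p were miR-361-5p (0.0590), miR-130a-3p (0.0606) and miR-27b-3p (0.0615), where the median distance was 0.159 over 116 miRNAs. Nearer to miR-194-5p were miR-27b-3p (0.0593), miR-26b-5p (0.0637) and miR-106b-5p (0.0639), where the median was 0.166. The 9 arrays share their scaling, so these distances describe the arrays and name no relation between the genes. None of these 5 miRNAs passed the test in any of the 3 comparisons. They were chosen for lying near the members on these same arrays, so this adds no separate evidence.

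Other miRNAs with known ties to hepatocytes or their nuclear factors gave the setting for the pair. Of 9 such miRNAs, 7 were tested and none passed in the diet comparison (3 at an unadjusted p under 0.05), with a median difference of 0.24 against 0.03 over all miRNAs. miR-148a-3p differed by 0.37 (adjusted p = 0.0624) and miR-122-5p, the most hepatocyte-restricted of them, by -0.10 (adjusted p = 0.422). With all spots these were 0.09 and -0.58 (adjusted p = 0.765 and 0.0682), and the median of the list was -0.14 against -0.22 over all miRNAs. None passed between metformin and high fat diet (0 unadjusted, median -0.08 against -0.06 over all), nor between metformin and control (1 unadjusted, median 0.04 against 0.00 over all). Of 11 miRNAs known to respond to p53, 5 were tested. miR-34a-5p, the best known p53 target among miRNAs, was higher in high fat diet than in control livers by 1.37 (adjusted p = 0.000265) and higher in metformin than in control livers by 0.80 (adjusted p = 0.0143). With all spots these were 0.84 and 0.63 (adjusted p = 0.0464 and 0.203), so the call against control in metformin livers was lost. With the slide row as a block neither call held, at 1.27 and 0.74 (adjusted p = 0.0764 and 0.0548), and over 21 other settings 18 kept the first call and 11 the second. Without any 1 of the metformin arrays the second was lost as well (adjusted p between 0.0702 and 0.0985). Between metformin and high fat diet livers miR-34a-5p differed by -0.56 and did not pass (adjusted p = 0.126). With all spots this was -0.21 (adjusted p = 0.723), and 1 of 21 other settings called it. The other 4 miRNAs of the p53 list that were tested did not pass in any of the 3 comparisons. Their differences between high fat diet and control lay between 0.01 and 0.20. The 95% intervals of miR-192-5p and miR-194-5p in the diet comparison ended at 0.33 and 0.48, and the lower end of the miR-34a-5p interval was 1.05. With all spots they ended at 0.13 and 0.37, against 0.39 for miR-34a-5p. With the slide row as a block the differences were 0.31 (SE 0.20) for miR-192-5p and 0.34 (SE 0.22) for miR-194-5p, against 1.27 (SE 0.29) for miR-34a-5p. miR-34a-5p was named because it passed the test, so its values are no yardstick for other miRNAs that respond to p53. The differences were not tested against each other, and a response of the members to p53 was not tested.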

How the data were processed

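Liver miRNA was measured on 9 one-colour Agilent arrays. Per the file headers, the deposited scanner files hold spot intensity after background subtraction from Feature Extraction 11.5.1.1, not scaled between arrays. Version 10.7 is named instead per the submitters' processing notes. The authors' value table, deposited as log2 values, was checked to hold the software's total signal plus 1 constant per array (-2.35 to -0.71), apart from 1 to 6 of 1881 miRNAs on each of 5 arrays that departed by more than 0.001. The origin of the constants is not stated in the labels.

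Edge columns were left out, 4 at a time from the outside, where 10% or more of the spots of bright probes (80th percentile above 100) fell under 50% of that level. A probe's value was the median over its other spots, leaving out those marked non-uniform, and 425 of 4415 probes with under 3 such spots on an array were dropped. Values were divided by the 75th percentile over probes detected on all arrays, floored at 0.0406 and put on the log2 scale. The brighter probe stood for a miRNA, and miRNAs whose brighter probe was detected on all 3 arrays of a group were tested. With all spots, the mean without outlier marks was taken and 139 miRNAs were tested. limma 3.58.1 in R 4.3.3 fitted 3 group means, with Benjamini-Hochberg adjustment over all miRNAs tested and 0.05 as threshold; dimmer probes were tested in a fit over all probes. The number of arrays limits the precision. No 2 arrays were identical.

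The scripts were tested on simulated data. The background correction by normexp was planned on the spot mean and was run on the spot median, the column the files hold. The miRNAs named are the members, the other strands of their hairpins and those sharing a seed. The 3 nearest patterns of each member and list members that passed are named too. The muscle miRNAs, miR-148a-3p, miR-122-5p, miR-122-3p and the bile duct and red blood cell markers were named to describe the tissue and the lists. The members, the lists and the choice to leave out the strips were made with earlier results of these data known.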

Additional observations from a re-analysis of the deposited data

How the results depend on the processing

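In 21 other settings, the members stayed short of the threshold in each comparison, except with the percentile taken over all probes, where metformin against control gave 0.89 for miR-192-5p and 0.96 for miR-194-5p (adjusted p = 0.0151 and 0.0134) with 98 miRNAs called. That divisor lay between 0.629 and 1.60 in intensity, below the dimmest detected probe, and the same setting gave 0.20 for miR-194-5p between metformin and high fat diet. Apart from all spots, given in the report, signs turned in the deposited value table: miR-192-5p -0.089, -0.18 and -0.27 for high fat diet against control, metformin against high fat diet and metformin against control, and miR-194-5p -0.0046 for high fat diet against control and -0.22 for metformin against control. Centred on its own 75th percentile, a setting chosen after seeing the data, the table gave -0.20 for miR-192-5p between metformin and high fat diet, and -0.14 and -0.091 for miR-192-5p and miR-194-5p between metformin and control. The difference of miR-192-5p between metformin and high fat diet, was 0.00011 without the strips and -0.027 with normexp, -0.019 with the mean of both probes and -0.093 with the slide row as a block. All spots reversed miR-192-5p to -0.24 and -0.23 against control and miR-194-5p to -0.094, 0.037 and -0.056 in the 3 comparisons. The cause of these turns was not tested. Quantile normalization gave exactly 0 for miR-192-5p, since its probe held the same rank on every array.

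Leaving out 1 array at a time, miR-192-5p ranged from 0.07 to 0.17 and miR-194-5p from 0.18 to 0.31 for high fat diet against control. The ranges were -0.057 to 0.047 and -0.12 to -0.028 for metformin against high fat diet, and 0.02 to 0.17 and 0.10 to 0.24 for metformin against control. Counts of miRNAs called ranged from 6 to 40, 0 to 3 and 1 to 8 in the same order; for high fat diet against control the count was 8 without control array 1, 40 without control array 3, 6 without high fat diet array 1, 7 without high fat diet array 2 and 13 without metformin array 2.

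The counts (20, 2 and 2) became 9, 0 and 0 with the mean of all spots, and 1, 0 and 98 under the percentile over all probes. They were 39, 1 and 7 with the slide as a block, which removes control array 3, the single array of its slide, and 0, 0 and 5 with the slide row as a block over 8 arrays. Both value table settings gave 0 in each comparison; normexp gave 0 in both metformin comparisons. Quantile normalization and the mean of both probes gave 0 between metformin and high fat diet, as did testing without a filter, which gave 1 for metformin against control. All 3 high fat diet arrays lay in row 1 and control arrays 1 and 2 in row 2, and with the row as a block miR-192-5p and miR-194-5p differed by 0.31 and 0.34 between high fat diet and control (adjusted p = 0.349 each). With the replicate block the members' differences were unchanged at 0.08 and 0.22 (adjusted p = 0.651 and 0.232), and the counts were 22, 0 and 3; same-numbered arrays correlated between -0.24 and 0.43. As a hint from the data only, 6 of 9 arrays correlated best with an array of their own number; since not all pairs correlated and no label ties the numbers, they were not taken to pair the arrays.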
